A study of Mus musculus with 12 samples.

Results

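The response of ON-OFF direction-selective retinal ganglion cells (ooDSGCs) to optic nerve crush was described from 6 of the 12 RNA-seq libraries of a mouse study that looked for genes controlling the regrowth of injured optic axons. All libraries titled HB9_3dpc (3, called crush here) were compared with all libraries titled HB9_Sham (3, called sham here), and no measured value entered that choice. The other 6 libraries came from melanopsin-expressing ganglion cells of another mouse line. They served here to estimate how much each gene varied between replicates and to choose the genes tested. They did not enter the difference between the crush and sham groups. Both groups were HB9:GFP mice, in which regulatory sequence of Hb9 (the gene Mnx1) drives green fluorescent protein, so the cells were chosen by that transgene and not by their physiology. Both groups had also received intraperitoneal tamoxifen on 5 days from postnatal day 21, at 0.124 mg per g, although their genotype label lists no Cre. The optic nerve was crushed, or a sham operation was done, at postnatal day 42, and cells were collected 3 days after the operation. Single GFP-positive cells were aspirated from papain-dissociated retina, 10 from each animal, and 3 such pools of 10 made 1 library of 30 cells. The labels give no sex and do not say whether 1 animal contributed to more than 1 library. The p-values therefore measure the spread between libraries of 1 group, estimated over all 12 libraries, and not that between animals. The RNA was amplified before sequencing.

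Retinal ganglion cells send the axons of the optic nerve, and a crush cuts those axons while the cell bodies stay in the retina. A known early response runs from the injured axon through the kinases DLK and JNK to the nuclear transcription factors JUN, ATF3, ATF4 and DDIT3 (CHOP), which act both in growth programmes and in the death of the cell, and most mammalian ganglion cells do not regrow their axon. ON-OFF direction-selective cells respond to motion in a preferred direction. The HB9:GFP line labels a subset of them, and Cartpt, Cdh6, Col25a1 and Mmp17 are known markers of such cells.

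The deposited values are RPKM (reads scaled by gene length and by library total, so that levels can be set side by side between genes), and the genome build is mm10. The totals by which the 6 libraries had been scaled ranged from 19874394 to 28195798 reads, and 15516 to 16514 genes per library were at 1 RPKM or more. Across the tested genes, libraries of 1 group correlated at Pearson r = 0.93 to 0.955 and libraries of different groups at r = 0.883 to 0.913, which describes similarity over genes and is no test. The leading principal component of the 6 libraries held 46.3% of the variance, with the sham libraries at -68.7 to -48.1 and the crush libraries at 51.9 to 63.4. On the next component crush 3 stood apart from crush 1 and 2 (-57.4 against 15.8 and 40.4) and sham 3 from sham 1 and 2 (-36.2 against 30.7 and 6.7), and crush 3 was the lowest crush library for several injury genes. The label was checked first. Mnx1 was at 20.9, 41.7 and 34 RPKM after sham and 2.96, 1.13 and 3.06 RPKM after crush. Cartpt was at 4731, 5481 and 5935 RPKM after sham and 1364, 5898 and 6395 RPKM after crush, and the ganglion cell genes Rbpms, Slc17a6, Thy1 and Nefl were above the level of Mnx1 in every library. The melanopsin gene Opn4 was at 20.2, 4.88 and 0.158 RPKM after sham and 19.6, 24.3 and 1.82 RPKM after crush, so its RNA was detected in every library. Atf3 and Ecel1, known injury markers, were near 0 in every sham library and among the abundant transcripts in every crush library.

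Optic nerve crush changed 1172 of 18269 tested genes, 6.42% of them: 702 rose (3.84%) and 470 fell (2.57%). Tested genes were those of the 38887 in the table that reached 1 RPKM in at least 3 of the 12 libraries. A gene counts as risen or fallen where its adjusted p was under 0.05 (limma on log2(RPKM + 1), two-sided, Benjamini-Hochberg over all genes tested), and log2 changes are given as crush minus sham ± SE. The rises were larger than the falls: 268 risen and 91 fallen genes changed more than 4-fold, and 43 against 2 changed more than 16-fold, on the scale of RPKM + 1. The crush and sham libraries overlapped for 3 of the 1172 genes. Passing the threshold itself favours genes whose groups are apart, so this count is no separate support for the calls. Of the risen genes, 559 were protein coding and 93 were pseudogenes, and of the fallen ones 352 and 97. The excess of rises depends on scaling. The median change of all tested genes was 0.11, quantile normalization moved it by -0.129 and left 600 rises and 605 falls (49.8% rises against 59.9%), and median-ratio scaling left 611 and 671 (47.7%). Some genes named here overlap a coding neighbour on the opposite strand, and unless counting used strand, which is not stated, their reads cannot be told apart. Among these are Avil (with Tsfm), B2m (Patl2), Cebpb (Tmem189), Cox6a2 (Itgad), Csf1r (Hmgxb3), Ddit3 (Mars), Flrt3 (Macrod2), Hcn3 (Pklr), Hpca (Tmem54), Kctd4 (Gtf2f2), Kctd19 (Plekhg4), Map3k12 (Pcbp2), Mmp12 (Mmp1b), Nefl (Nefm), Rab3a (Mpv17l2), Stat3 (Stat5a), Tuba4a (Stk16) and Yars (C77080). Counts also depend on the number of libraries: 777, 681 and 645 genes passed without sham 1, 2 and 3, and 656, 758 and 684 without crush 1, 2 and 3.

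**Figure D1:**
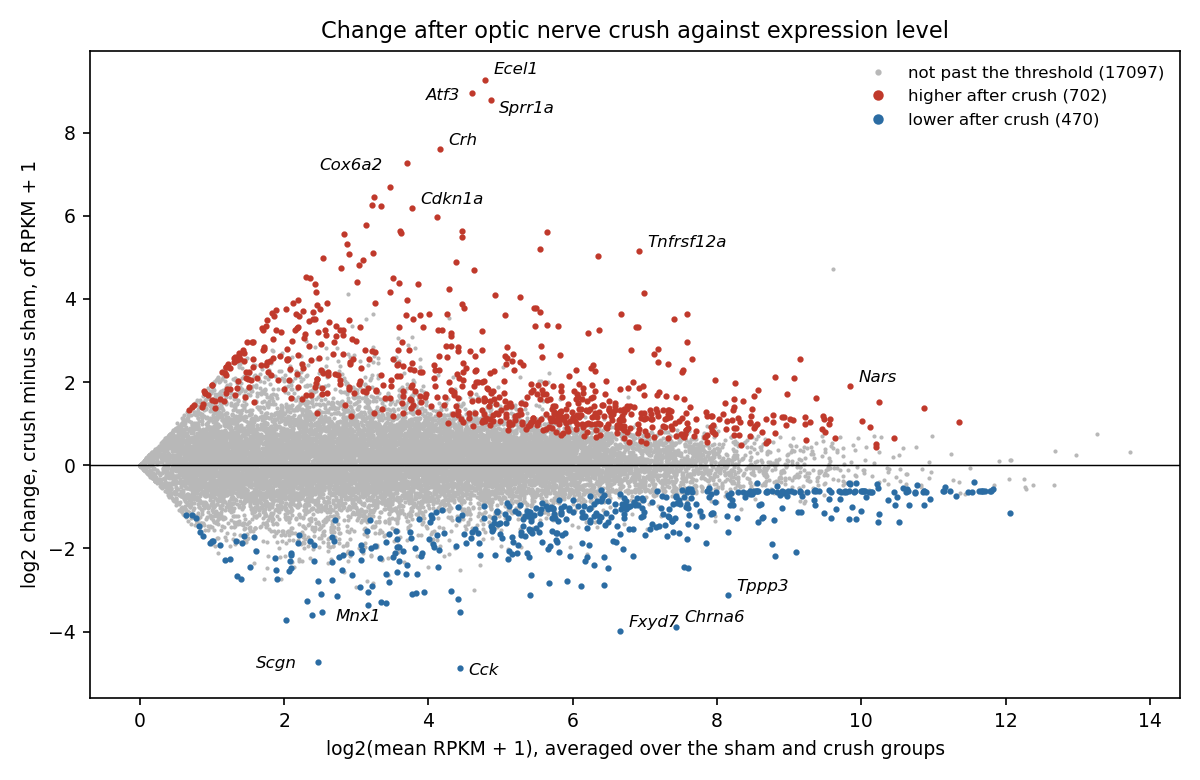
Each point is 1 of the 18269 tested genes, with its level (log2 of the mean RPKM + 1, averaged over both groups) on the horizontal axis and its log2 change after crush on the vertical axis. Red marks the 702 risen and blue the 470 fallen genes; Ecel1, Atf3 and Sprr1a lie highest, at 9.26, 8.94 and 8.77, and Cck and Scgn lowest, at -4.89 and -4.74.

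Ecel1, Atf3 and Sprr1a, the genes with the largest rises, went from near 0 to levels among those of the more abundant mRNAs. Ecel1, which encodes an endothelin-converting-enzyme-like membrane protease, lies at chr1:87147655-87156521 and was at 0.0509, 0.104 and 0.101 RPKM after sham and 1047, 548 and 509 RPKM after crush (log2 change 9.26 ± 0.46, adjusted p = 3.84e-07). Atf3, the stress-induced transcription factor, lies at chr1:191170296-191183340 and was at 0.0674, 0.0409 and 0.152 RPKM after sham and 661, 486 and 473 RPKM after crush (log2 change 8.94 ± 0.31, adjusted p = 1.08e-08). For both genes every crush library lay far above every sham library, and by mean level after crush they ranked 104 and 155 among protein-coding genes. Sprr1a, a small proline-rich protein known from regenerating sensory neurons, lies at chr3:92483952-92485895 and was at 0.497, 0 and 0 RPKM after sham and 1250, 814 and 122 RPKM after crush (log2 change 8.77 ± 0.70, adjusted p = 1.43e-05). Its crush libraries differed among themselves, crush 3 being far below crush 1 and 2, but each was well above all sham libraries. In a model of the reads recovered from the RPKM (voom), the adjusted p of Sprr1a was 0.127.

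Several of the others among the 15 largest rises encode proteins of growth arrest, of lysosomes and of transport. Cdkn1a, the cyclin-dependent kinase inhibitor p21, was at 0.742, 1.13 and 0.0453 RPKM after sham and 115, 118 and 107 RPKM after crush (log2 change 6.19 ± 0.35, adjusted p = 1.25e-06). Cox6a2, the muscle-type form of a cytochrome c oxidase subunit, was at 0.0677, 0 and 0.0765 RPKM after sham and 155, 189.5 and 138 RPKM after crush (log2 change 7.26 ± 0.50, adjusted p = 6.29e-06). Slc7a3, a transporter of cationic amino acids, was at 0.436, 0.172 and 1.72 RPKM after sham and 73.6, 81.1 and 91.2 RPKM after crush (log2 change 5.64 ± 0.62, adjusted p = 0.000141). In all of these the crush libraries lay together and far above the sham libraries. Crabp2, which binds retinoic acid, Prss12, the secreted protease neurotrypsin, and Zcchc12, a zinc finger protein, rose by 6.26 ± 0.52, 5.77 ± 0.49 and 5.97 ± 0.52, and Mfge8, a secreted protein that binds phosphatidylserine, by 5.63 ± 0.87 (adjusted p = 0.0513 in the voom model). The microRNA gene Mir147 passed at 5.58 ± 0.62, but it lies inside AA467197, whose reads cannot be told apart from it.

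The genes of Cd68 and Gpnmb, lysosomal proteins common in macrophages, were also among them. Cd68 was at 0.0354, 0.129 and 0.0801 RPKM after sham and 92.9, 116 and 125 RPKM after crush (log2 change 6.69 ± 0.85, adjusted p = 0.000436). Gpnmb was at 0, 0 and 0.0132 RPKM after sham and 66.8, 80.2 and 120.0 RPKM after crush (log2 change 6.44 ± 0.62, adjusted p = 5.27e-05). Lgals3 (galectin-3) and Mmp12 (macrophage elastase), both chosen after their values were seen, rose by 5.11 ± 0.55 and 5.33 ± 0.68. The groups did not overlap for any of these 4 genes. Of 12 microglia and macrophage markers, 9 were below 1 RPKM in all 6 libraries: Aif1, Cx3cr1, C1qa, C1qb, C1qc, Tyrobp, Ptprc, Itgam and P2ry12. The summed level of the 12 was 3.8 to 8 RPKM after sham and 98.8 to 131 RPKM after crush. Nearly all of the sum after crush, but little of that after sham, was Cd68. The receptor gene Csf1r was at 3.93, 3.02 and 3.6 RPKM after sham and 4.94, 5.26 and 5.2 RPKM after crush. Whether the RNA of these genes came from the picked cells themselves was not tested.

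Some transcription factors of the injury response rose, and of the kinases and scaffolds upstream of them 1 rose and 1 fell. Jun was at 28.4, 30.8 and 18.6 RPKM after sham and 253, 243 and 258 RPKM after crush (log2 change 3.26 ± 0.21, adjusted p = 3.63e-06), with the crush libraries close together and far above all sham libraries. Of 19 tested AP-1 and immediate early genes (23 listed), 5 rose and 1 fell, with a median of 0.76: Jun, its relatives Jund (1.26 ± 0.15) and Fosl1 (3.58 ± 0.75), Egr1 (2.13 ± 0.41) and the antiproliferative Btg2 (2.40 ± 0.42) rose, and Ier3 fell (-1.31 ± 0.30). The call of Fosl1 was lost without sham 3 or crush 1 (adjusted p = 0.0561 and 0.0577), and that of Ier3 with each library left out except crush 1 (adjusted p up to 0.092). Fos, the classical activity-dependent gene, was at 73.4, 107 and 45.8 RPKM after sham and 36.2, 103 and 70.9 RPKM after crush and its groups overlapped. Of 17 tested kinases and scaffolds of the DLK and JNK cascade, 1 rose and 1 fell, with a median of -0.08. Of all genes, 3.84% rose and 2.57% fell, so this list was not called less often than genes in general. The riser was Tnik (2.29 ± 0.38), a kinase that acts on JNK. Map3k12 (DLK) was at 43.4, 41.2 and 38.6 RPKM after sham and 43.5, 50.02 and 47.9 RPKM after crush, the lowest crush library being level with the highest sham library (adjusted p = 0.774). Mapk10 (JNK3) was the member that fell (-0.85 ± 0.23), a call lost with any 1 library left out (adjusted p = 0.081 to 0.164).

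Phosphatases that switch off MAP kinases rose in part. Of 11 tested dual-specificity phosphatases, 6 passed upward and none downward, against 3.84% of all genes, with a median of 1.41. Dusp1 was at 29.5, 30.04 and 27 RPKM after sham and 132, 152 and 153 RPKM after crush (log2 change 2.29 ± 0.27, adjusted p = 0.000241). Both groups were tight and far apart. The count was less firm for the list as a whole, with 1 to 3 members passing when any 1 library was left out.

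Genes of the integrated stress response, in which ATF4 drives amino acid supply and the stress factor DDIT3, moved upward in most members. Of 27 tested members (28 listed), 21 rose and none fell, against 3.84% and 2.57% of all genes. Their median was 2.66, and 16 to 19 still passed with any 1 library left out. Ddit3 was at 48.5, 49.5 and 50.02 RPKM after sham and 611, 529 and 578 RPKM after crush (log2 change 3.51 ± 0.33, adjusted p = 4.67e-05). It lies opposite Mars, whose own change was 0.99 ± 0.32. The heterodimer amino acid transporter Slc7a5 was at 8.23, 6.84 and 10.7 RPKM after sham and 148, 142 and 174 RPKM after crush (log2 change 4.03 ± 0.25, adjusted p = 3.63e-06), and its partner Slc3a2 at 46.5, 35.8 and 29.6 RPKM after sham and 374, 348 and 402 RPKM after crush (log2 change 3.32 ± 0.25, adjusted p = 1.07e-05). For all 3 the lowest crush library was several times the highest sham library. Asns, asparagine synthetase, was at 261, 190.5 and 190.3 RPKM after sham and 1033, 899 and 830.4 RPKM after crush (log2 change 2.11 ± 0.19, adjusted p = 3e-05), and ranked 68 among protein-coding genes after crush. The glutathione-degrading enzyme Chac1 was at 20.2, 18.2 and 33.6 RPKM after sham and 238, 203 and 210.4 RPKM after crush (log2 change 3.17 ± 0.30, adjusted p = 5.27e-05). The stress-induced sestrin Sesn2 rose by 2.66 ± 0.28 and the transcription factor Cebpb by 2.29 ± 0.33. Atf4 itself and 2 enzymes of serine synthesis, chosen after their values were seen, also rose: Atf4 by 1.55 ± 0.23, Psat1 by 3.78 ± 0.43, and Phgdh, at 14.9, 3.89 and 3.52 RPKM after sham and 259, 289 and 226 RPKM after crush, by 5.19 ± 0.64. Slc7a11, the cystine transporter, was at 16.8, 18.1 and 13.6 RPKM after sham and 15.2, 18.5 and 8.95 RPKM after crush and overlapped (adjusted p = 0.788).

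Most of the enzymes that load amino acids onto tRNA rose. Of 20 cytosolic aminoacyl-tRNA synthetases, all tested, 13 rose and none fell, against 3.84% and 2.57% of all genes. Their median was 1.35, and 11 or 12 passed with any 1 library left out. Nars was at 482, 478 and 468 RPKM after sham and 1908, 1643 and 1783 RPKM after crush (log2 change 1.90 ± 0.16, adjusted p = 2.59e-05), and Gars at 416, 375 and 339 RPKM after sham and 1236, 1173 and 1081 RPKM after crush (log2 change 1.63 ± 0.12, adjusted p = 8.4e-06). In both, every crush library was well above every sham library. Sars, Wars, Cars and Aars rose by 1.71 ± 0.20, 1.60 ± 0.14, 1.79 ± 0.23 and 1.29 ± 0.15, and Lars and Yars, chosen after their values were seen, by 2.34 ± 0.42 and 1.66 ± 0.26. Qars was at 12.9, 11.5 and 13.5 RPKM after sham and 21.6, 18.8 and 3.88 RPKM after crush, and Farsa at 32.4, 22.9 and 19.8 RPKM after sham and 32.7, 36.1 and 21.8 RPKM after crush, both with overlapping groups.

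A smaller part of the chaperones and sensors of the endoplasmic reticulum was called than of the synthetases. Of 22 tested, 3 rose and none fell, against 3.84% and 2.57% of all genes, with a median of 0.28 against 0.11. Hspa5 (BiP), the main chaperone of that compartment, was at 151, 258 and 211 RPKM after sham and 677, 611 and 628 RPKM after crush (log2 change 1.66 ± 0.17, adjusted p = 9.02e-05). Herpud1, which serves the degradation of misfolded proteins, was at 62.1, 89.2 and 98 RPKM after sham and 388, 415 and 408 RPKM after crush (log2 change 2.29 ± 0.27, adjusted p = 0.000261). Neither overlapped between groups. Xbp1 rose by 0.85 ± 0.20, a call lost with each library left out except sham 2 (adjusted p = 0.0622 to 0.0846).

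The sequences before the starts of 4 of these genes are shown because they rose together and each holds the element TGATGNAA, which C/EBP and ATF factors such as ATF4 are known to bind. Each is the 250 bases before the start in RefSeq's GRCm38.p6 (mm10), 5′ to 3′ on the gene's own strand, with the match in capitals.
Atf3, chr1:191183334-191183583, minus strand: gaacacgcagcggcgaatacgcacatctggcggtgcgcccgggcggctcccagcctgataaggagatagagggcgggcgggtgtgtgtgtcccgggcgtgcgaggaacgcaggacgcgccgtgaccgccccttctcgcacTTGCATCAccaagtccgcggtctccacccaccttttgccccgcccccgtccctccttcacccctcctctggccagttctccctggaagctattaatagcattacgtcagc
Asns, chr6:7693210-7693459, minus strand: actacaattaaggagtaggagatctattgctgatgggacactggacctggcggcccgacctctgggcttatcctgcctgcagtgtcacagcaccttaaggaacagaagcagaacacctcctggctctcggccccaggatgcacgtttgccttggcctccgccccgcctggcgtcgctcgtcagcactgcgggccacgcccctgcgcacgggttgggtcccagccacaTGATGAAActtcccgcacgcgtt
Chac1, chr2:119350992-119351241, plus strand: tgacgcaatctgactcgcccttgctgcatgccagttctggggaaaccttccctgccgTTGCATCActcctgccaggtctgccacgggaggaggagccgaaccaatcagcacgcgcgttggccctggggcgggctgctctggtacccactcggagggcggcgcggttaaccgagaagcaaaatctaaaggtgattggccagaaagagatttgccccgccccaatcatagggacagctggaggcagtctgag
Gars, chr6:55037751-55038000, plus strand: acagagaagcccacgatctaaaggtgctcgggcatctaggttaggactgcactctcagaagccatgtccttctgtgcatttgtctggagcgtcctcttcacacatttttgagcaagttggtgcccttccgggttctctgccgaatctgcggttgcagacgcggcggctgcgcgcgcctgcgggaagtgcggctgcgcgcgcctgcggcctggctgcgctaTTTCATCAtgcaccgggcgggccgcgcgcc
The first base of the match lies 110, 23, 193 and 30 bases before the start of Atf3, Asns, Chac1 and Gars, and in Atf3, Chac1 and Gars it is the reverse complement that matches. The search covered windows of 300 bases, from 250 before to 50 after each start, on both strands, and a base could count for more than 1 motif. Windows were at hand for 10295 of the tested genes (13271 windows), for 425 of the risen and for 261 of the fallen genes. TGATGNAA was found in 2.25% of all windows, 6.01% of those of risen genes and 1.32% of those of fallen genes. TGANTCA, the AP-1 element bound by JUN and FOS proteins, was found in 5.06% of all windows, 9.72% for risen and 4.47% for fallen genes. TGACGTCA, the cyclic AMP response element, was found in 2.91%, 4.42% and 3.42%. These shares describe letters in windows, no test was made, and genes with several starts count several times.

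**Figure D2:**
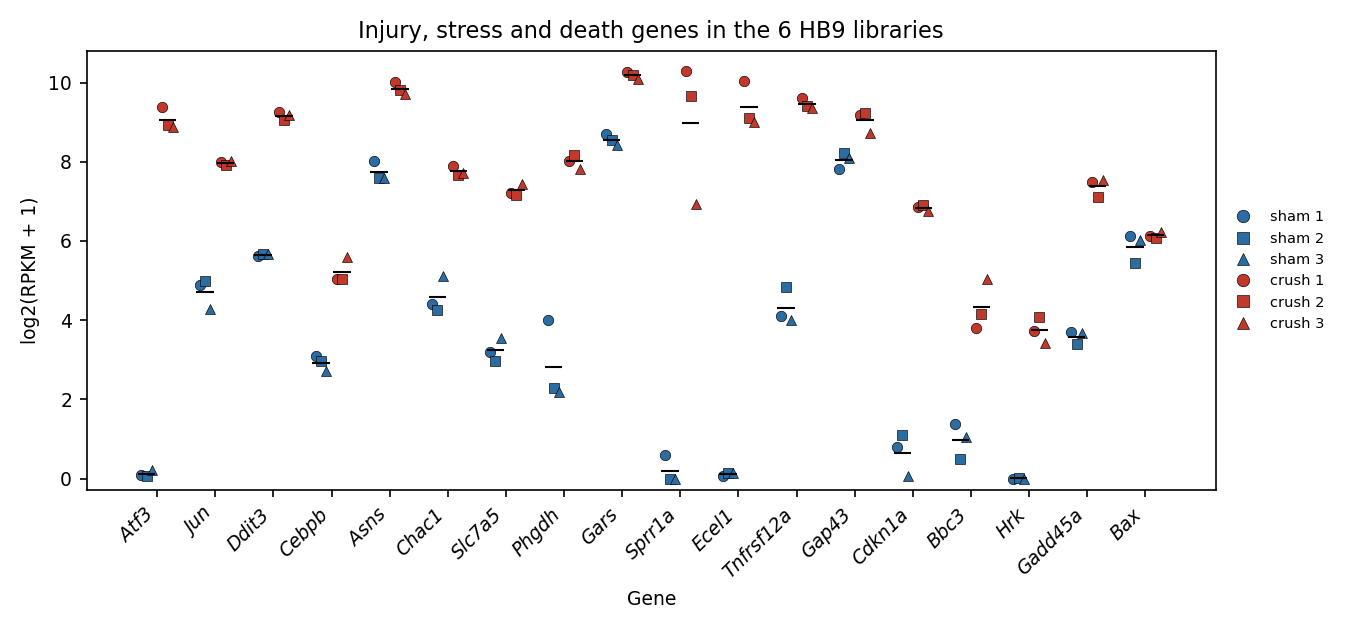
Level of 18 injury, stress and death genes, as log2(RPKM + 1), in each of the 3 sham (blue) and 3 crush (red) libraries, with marker shapes for the replicate and a bar at the group mean. Atf3, Ecel1 and Sprr1a start near 0, Asns and Gars rise from high sham levels, and Bax shows overlapping groups.

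Known regeneration-associated genes were raised over a wide range of sizes. Of 27 tested (32 listed), 16 rose and none fell, against 3.84% and 2.57% of all genes. Their median was 1.99, and 14 to 17 passed with any 1 library left out. This list holds Atf3, Ecel1 and Sprr1a, which were already known to rise here when it was made, so its count is a description. Tnfrsf12a, the receptor Fn14, was at 16.3, 27.5 and 15 RPKM after sham and 785, 676 and 656 RPKM after crush (log2 change 5.14 ± 0.33, adjusted p = 3.63e-06), which placed it at rank 102 among protein-coding genes after crush. The growth cone protein Gap43 was at 226, 299 and 271 RPKM after sham and 579, 596 and 422 RPKM after crush (log2 change 1.00 ± 0.18, adjusted p = 0.00473), a smaller rise from a high level. Adcyap1, which encodes the neuropeptide PACAP, was at 38.2, 49.9 and 38.2 RPKM after sham and 323, 292 and 263 RPKM after crush (log2 change 2.77 ± 0.23, adjusted p = 2.07e-05). None of these 3 overlapped between groups. Klf6, a zinc finger transcription factor, rose by 1.72 ± 0.21, the DNA-damage-inducible Gadd45a by 3.79 ± 0.44, Stat3 by 1.62 ± 0.30 and the small heat shock protein Hspb1 by 2.62 ± 0.43. Flrt3 and Cd44, chosen after their values were seen, rose by 4.70 ± 0.56 and 2.76 ± 0.41. Plaur, the urokinase receptor, was at 0 in all sham libraries and at 42.6, 22.7 and 10.2 RPKM after crush, at least 783-fold higher when sham is set to a floor of 3 reads over the group. Such a bound covers counting error only.

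Other genes of this class did not pass. Sox11, a transcription factor that promotes axon growth, was at 1.2, 0.786 and 1.12 RPKM after sham and 7.52, 3.63 and 12.4 RPKM after crush (adjusted p = 0.0964, and 0.047 with a pseudocount of 5), with no overlap but a wide spread after crush. Basp1 was at 333, 321 and 372 RPKM after sham and 378, 497 and 452 RPKM after crush (adjusted p = 0.33), and Klf7 at 12.8, 9.37 and 15.4 RPKM after sham and 17.8, 13.8 and 11 RPKM after crush with overlapping groups. Stmn2, a tubulin-binding protein of axons, was at 652, 722 and 557 RPKM after sham and 879, 1086 and 831 RPKM after crush (adjusted p = 0.0518, and 0.0428 in the voom model), short of the threshold although every crush library lay above every sham library.

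Several death effectors and growth-arrest genes rose, and no member of the BCL-2 family passed downward. Of 19 tested BCL-2 family members and caspases (24 listed), 4 rose and none fell, against 3.84% and 2.57% of all genes. Their median was 0.28, and 4 passed with each library left out. Among them were the BH3-only killers Bbc3 (PUMA), Hrk and Bcl2l11 (BIM). Bbc3 was at 1.62, 0.404 and 1.08 RPKM after sham and 13, 16.7 and 31.7 RPKM after crush (log2 change 3.35 ± 0.53, adjusted p = 0.00188). Hrk was at 0, 0.0143 and 0 RPKM after sham and 12.3, 15.8 and 9.74 RPKM after crush (log2 change 3.74 ± 0.49, adjusted p = 0.000508). Each crush library exceeded each sham library in both. Bcl2l11 rose by 2.92 ± 0.55, with an adjusted p of 0.0827 in the voom model and 0.0661 with a pseudocount of 0.1. Bax, the pore-forming effector on which the death of these cells is known to depend, was at 68.3, 42.5 and 63.6 RPKM after sham and 68.8, 66.5 and 73.3 RPKM after crush and overlapped (adjusted p = 0.627), as did the survival gene Bcl2l1 at 83.1, 72 and 59.3 RPKM after sham and 64.1, 73.8 and 71.5 RPKM after crush. Of 15 tested p53 targets and growth-arrest genes (18 listed), 6 rose and none fell, with a median of 2.01. Besides Cdkn1a, Gadd45a, Sesn2 and Btg2, they were Phlda3 (2.02 ± 0.46) and Perp (2.23 ± 0.58), whose calls were lost with most single libraries left out (adjusted p up to 0.0813 and 0.147). The 9 tested axon survival genes are too few to show fewer calls than genes in general. Of these 9, none passed in either direction (limma, median 0.05, below 0 under quantile normalization at -0.09). Among them, the NAD-making enzyme Nmnat2 was at 40.7, 43.9 and 43.3 RPKM after sham and 32.5, 30.3 and 45.4 RPKM after crush and Sarm1, the NAD-destroying trigger of axon breakdown, at 16.8, 12.9 and 13.1 RPKM after sham and 9.82, 23.8 and 20.4 RPKM after crush.

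Neuropeptide precursors changed strongly in both directions. Of 22 tested (28 listed), 8 rose and 2 fell, against 3.84% and 2.57% of all genes, with a median of 1.30. Crh, corticotropin-releasing hormone, was at 0.0338, 0.0615 and 0.0381 RPKM after sham and 398, 474 and 43.7 RPKM after crush (log2 change 7.61 ± 0.71, adjusted p = 4.67e-05, and adjusted p = 0.117 in the voom model). Its relative Ucn (urocortin) was at 0, 0 and 0 RPKM after sham and 85.1, 196 and 23.9 RPKM after crush (log2 change 6.23 ± 0.60, adjusted p = 5.27e-05), at least 1140-fold higher against the floor of 3 reads. Both were lowest in crush 3. Vgf, a secreted protein induced by neurotrophins, was at 52.2, 64.9 and 46.5 RPKM after sham and 358, 358 and 428 RPKM after crush (log2 change 2.79 ± 0.55, adjusted p = 0.00822), with crush libraries close together. Scg2 (secretogranin II) was at 1388, 2093 and 2010 RPKM after sham and 3545, 3071 and 4651 RPKM after crush (log2 change 1.04 ± 0.20, adjusted p = 0.00666). Neurotensin (Nts) was at 0 in all sham libraries and rose to 4.75, 2.05 and 2.09 RPKM. Gal (galanin), chosen after its values were seen, passed at 5.60 ± 1.32 (adjusted p = 0.0238), but at 19.7, 0.057 and 0 RPKM after sham and 608, 371 and 10.1 RPKM after crush its groups overlapped, and the voom model gave an adjusted p of 0.339. The 2 that fell were Cck and Chga.

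Upstream of Sprr1a and Ucn, the other motifs searched were found. These sequences are shown as examples of genes that were silent or nearly so after sham, and other such genes were left out. They are again the 250 bases before the start, with matches in capitals, TGANTCA in Sprr1a and TGACGTCA in Ucn.
Sprr1a, chr3:92485882-92486131, minus strand: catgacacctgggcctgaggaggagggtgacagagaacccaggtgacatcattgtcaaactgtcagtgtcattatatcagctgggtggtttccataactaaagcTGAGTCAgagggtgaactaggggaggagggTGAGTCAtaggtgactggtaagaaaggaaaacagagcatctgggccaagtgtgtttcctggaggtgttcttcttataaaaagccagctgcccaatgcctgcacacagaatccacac
Ucn, chr5:31138896-31139145, minus strand: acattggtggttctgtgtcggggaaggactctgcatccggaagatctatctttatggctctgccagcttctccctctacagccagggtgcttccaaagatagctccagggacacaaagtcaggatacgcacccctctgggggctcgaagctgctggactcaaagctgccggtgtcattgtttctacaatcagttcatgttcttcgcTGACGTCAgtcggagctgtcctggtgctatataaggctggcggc
The 2 matches in Sprr1a begin 146 and 116 bases before the start, and the match in Ucn 44 bases before it. Among the 15 largest rises, the windows of Gpnmb and Cd68 also held TGANTCA, as did that of Scgn among the 15 largest falls. The windows of Ecel1, Cdkn1a, Mfge8, Prss12 and Zcchc12 held none of the 3 motifs. No window was at hand for Crh, Mir147, Slc7a3, Crabp2 and Cox6a2.

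Lists of cytokine, growth factor and matrix receptors held some calls. Of 14 tested genes of CNTF, LIF and STAT3 signalling, 3 rose and none fell, against 3.84% and 2.57% of all genes, with a median of 0.59. Stat3 was at 11, 13.9 and 8.5 RPKM after sham and 29.9, 46.3 and 32.5 RPKM after crush (log2 change 1.62 ± 0.30, adjusted p = 0.00574), with separate groups. The receptor chains Lifr and Cntfr passed at 1.38 ± 0.34 and 1.49 ± 0.39, calls lost with any 1 library left out (adjusted p up to 0.114 and 0.152). The feedback inhibitor Socs3 was at 0 in all sham libraries and at 0.773, 0.209 and 0 RPKM after crush. Tnfrsf1b, a receptor for tumour necrosis factor, was at 1.06, 0.117 and 0 RPKM after sham and 21.2, 11.7 and 6.14 RPKM after crush (log2 change 3.26 ± 0.60, adjusted p = 0.00518), with groups apart. Of 14 tested thrombospondins, syndecans and their receptors, 2 rose, against 3.84% of all genes. They were the heparan sulfate proteoglycan Sdc2 (2.01 ± 0.31) and the integrin chain Itgb1 (0.81 ± 0.22). Itgb1 was just under the threshold (adjusted p = 0.0491) and lost after quantile normalization (0.108) and without sham 1, sham 3, crush 1 or crush 2 (up to 0.205). Thbs1 (thrombospondin 1), a secreted matrix protein, was at 0, 0.856 and 0 RPKM after sham and 0, 0 and 0.0124 RPKM after crush. Sdc1 was at 0.421, 0 and 1.72 RPKM after sham and 2.15, 0 and 0 RPKM after crush. Of 22 tested receptors for guidance cues and growth inhibitors, 1 fell, against 2.57% of all genes. It was the Nogo receptor relative Rtn4rl1 (-1.26 ± 0.28), a call lost without sham 2, sham 3 or crush 3 (adjusted p = 0.054, 0.0795 and 0.0813).

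Actin regulators, proteases and stress-defence genes held members with large changes beside others that were not called. Avil (advillin), an actin-severing protein of sensory neurons, was at 0.0262, 0.705 and 0 RPKM after sham and 61.3, 49 and 20.4 RPKM after crush (log2 change 5.07 ± 0.68, adjusted p = 0.000593). Csrp3, the muscle LIM protein, was at 12.4, 1.58 and 0 RPKM after sham and 60.6, 98.7 and 36.7 RPKM after crush (log2 change 4.23 ± 0.75, adjusted p = 0.0041). Both were low after sham, and no library of theirs overlapped. Mmp9, a secreted gelatinase, went the other way, at 115, 114 and 141 RPKM after sham and 15.2, 12.2 and 12.6 RPKM after crush (log2 change -3.12 ± 0.62, adjusted p = 0.00897), lost with a pseudocount of 0.1 (adjusted p = 0.238) although its groups lay far apart. Of 23 tested genes of oxidative defence and iron storage, 5 rose and 3 fell, with a median of 0.12 against 0.11 for all genes, which was -0.02 under quantile normalization. With 1 library left out, 3 or 4 rose and 1 to 3 fell, with 1 fall without sham 1, sham 2, crush 1 or crush 3. Srxn1, which repairs oxidised peroxiredoxins, was at 231, 268 and 277 RPKM after sham and 1047, 1053 and 1214 RPKM after crush (log2 change 2.09 ± 0.15, adjusted p = 6.61e-06), and Sqstm1 (p62), an autophagy adaptor, at 669, 719.6 and 754 RPKM after sham and 2196, 1984 and 2015 RPKM after crush (log2 change 1.53 ± 0.12, adjusted p = 9.89e-06). For both, all crush libraries were well above all sham libraries. Sod2, the mitochondrial superoxide dismutase, fell by 1.24 ± 0.18, from 103, 104 and 113 to 45.4, 41.5 and 47.1 RPKM. Of 21 tested genes of MHC class I and interferon response, 3 rose: B2m, at 13.6, 0.708 and 8.19 RPKM after sham and 86.2, 146 and 88.8 RPKM after crush (log2 change 4.10 ± 0.65, adjusted p = 0.00204), H2-T23 (1.79 ± 0.34) and H2-D1 (0.82 ± 0.16). Other lists held some calls, where 3.84% of all genes rose and 2.57% fell. Of 20 heat shock genes, 3 rose, among them Hspb1 and Hsp90aa1 (1.08 ± 0.14), and of 12 tested annexins and S100 proteins 3 rose, S100a10 (1.10 ± 0.22), S100a11 and Anxa3. S100a11 was at 0 in all sham libraries, and its call was lost with any 1 library left out (adjusted p = 0.0507 to 0.115). Anxa3 had an adjusted p of 0.0551 in the voom model. Of 14 tested neurotrophic factors and receptors Fgfr1 rose (2.23 ± 0.46), and of 26 tested genes of BMP and TGF-beta signalling Tgfbr2 rose (2.20 ± 0.48), the latter a share near the 3.84% of all genes, and both calls were lost with single libraries left out (adjusted p up to 0.0587 and 0.0696). Of 15 surface molecules related to L1, Chl1 rose (2.16 ± 0.41) and Cadm2 fell (-0.93 ± 0.21), with adjusted p of 0.104 for Chl1 at a pseudocount of 5 and up to 0.102 for Cadm2 with 1 library left out. The interferon-induced Ifit3 was at 53.4, 47.7 and 63.9 RPKM after sham and 14.6, 54.6 and 7.3 RPKM after crush and overlapped.

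**Figure D3:**
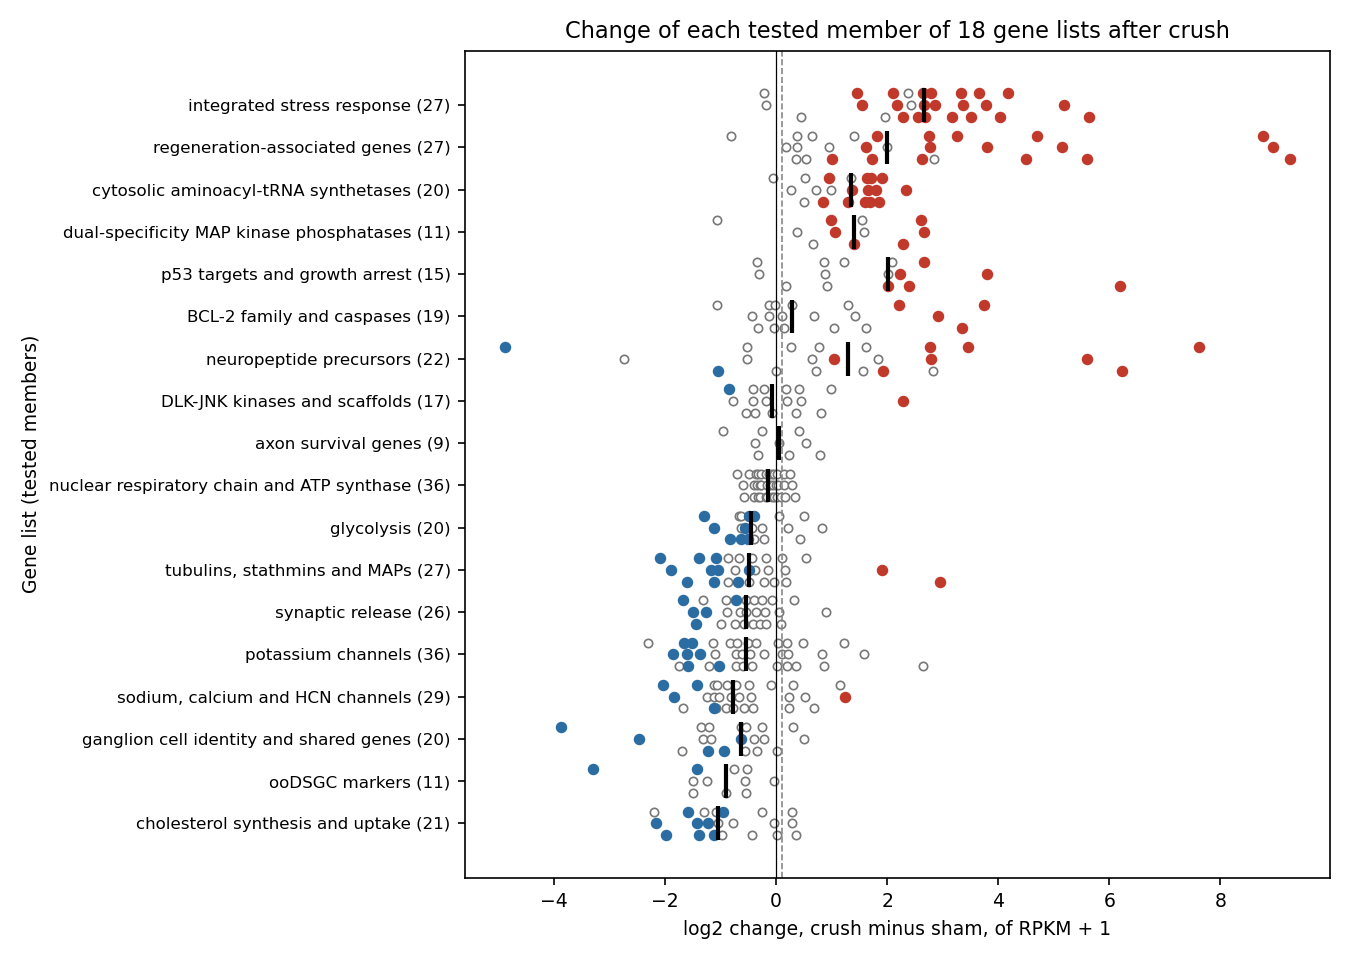
Each circle is the log2 change of 1 tested member of a gene list (number tested in brackets), red where it rose, blue where it fell and open where it did not pass; the bar is the list's median and the dashed line the median of all genes, 0.11. Integrated stress response genes have a median of 2.66 and cholesterol genes one of -1.05.

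Most genes that mark this cell class or ganglion cells in general had lower estimates after crush, with wide differences between members. Of 11 tested ooDSGC markers (12 listed), all 11 estimates lay below 0, with a median of -0.91, but 2 passed, Mnx1 and Satb1, against 2.57% of all genes. Mnx1, which encodes the homeodomain factor HB9 (chr5:29473038-29478519), fell by 3.30 ± 0.43 (adjusted p = 0.000471), and its lowest sham library (20.9 RPKM) was above its highest crush library (3.06 RPKM). Satb1, a chromatin organiser, was at 67.2, 72.3 and 85 RPKM after sham and 23.2, 22.5 and 38.3 RPKM after crush (log2 change -1.42 ± 0.33, adjusted p = 0.0215), a call lost in 5 of the 6 fits with 1 library left out, with an adjusted p of up to 0.0979. Cdh6, an adhesion molecule of these cells, was at 103, 135 and 167 RPKM after sham and 60.7, 38.2 and 43.6 RPKM after crush, with no overlap but an adjusted p of 0.201 (0.026 in the voom model and 0.0141 with the HB9 libraries alone). Cartpt, Col25a1 and Mmp17 overlapped between groups, and Cartpt was low in crush 1 alone. In pools of picked cells, fewer cells of a type and less RNA per cell cannot be told apart, and a loss of Mnx1 RNA is also measured in cells that were found by a reporter driven from that gene.

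Of 20 shared ganglion cell genes, all tested, 5 fell and none rose, against 2.57% and 3.84% of all genes. Their median was -0.64, and 3 fell with any 1 library left out. Chrna6, a nicotinic acetylcholine receptor subunit at chr8:27403214-27413944, was at 686, 694 and 593 RPKM after sham and 54.8, 35.2 and 43 RPKM after crush (log2 change -3.88 ± 0.57, adjusted p = 0.00114), with every crush library far below every sham library. The RNA-binding protein Rbpms, used to count ganglion cells, was at 226, 227 and 272 RPKM after sham and 98.9, 90.3 and 122 RPKM after crush (log2 change -1.22 ± 0.16, adjusted p = 0.000599). Neither overlapped. Sncg (gamma-synuclein) fell by 0.94 ± 0.19, not past the threshold after quantile normalization (adjusted p = 0.0911), and Chrnb3 and Nrn1 passed at -2.46 ± 0.63 and -0.63 ± 0.16, both lost with any 1 library left out (adjusted p up to 0.126 and 0.15). Thy1 was at 137, 121 and 90.5 RPKM after sham and 95.8, 90.5 and 74.8 RPKM after crush (adjusted p = 0.369), and the vesicular glutamate transporter Slc17a6 at 703, 918 and 964 RPKM after sham and 896, 769 and 945 RPKM after crush (adjusted p = 0.977). Both overlapped, and the estimate for Slc17a6 was -0.09 under median-ratio scaling. The transcription factors Pou4f1 and Pou4f2 (Brn3a and Brn3b) did not pass. Pou4f1 was at 79.2, 88.2 and 68.8 RPKM after sham and 25.9, 27.6 and 55.6 RPKM after crush (adjusted p = 0.229, and 0.047 in the voom model). Pou4f2 was at 6.29, 7.57 and 6.68 RPKM after sham and 0.0268, 1.56 and 4.45 RPKM after crush (adjusted p = 0.192). Neither overlapped between groups. Of 8 tested markers of other ganglion cell types, Jam2 fell and Eomes rose. Jam2, an adhesion molecule, passed at -3.07 ± 0.70, lost with single libraries left out (adjusted p up to 0.0857). Eomes, a transcription factor of melanopsin cells, was at 1.68, 1.19 and 0 RPKM after sham and 6.88, 7.9 and 9.45 RPKM after crush (log2 change 2.32 ± 0.32, adjusted p = 0.000837, and 0.068 in the voom model). Spp1 (osteopontin), a marker of alpha ganglion cells, was at 547, 261 and 3.24 RPKM after sham and 2482, 1948 and 2333 RPKM after crush, with no overlap but an adjusted p of 0.121 (0.0376 in the voom model).

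**Figure D4:**
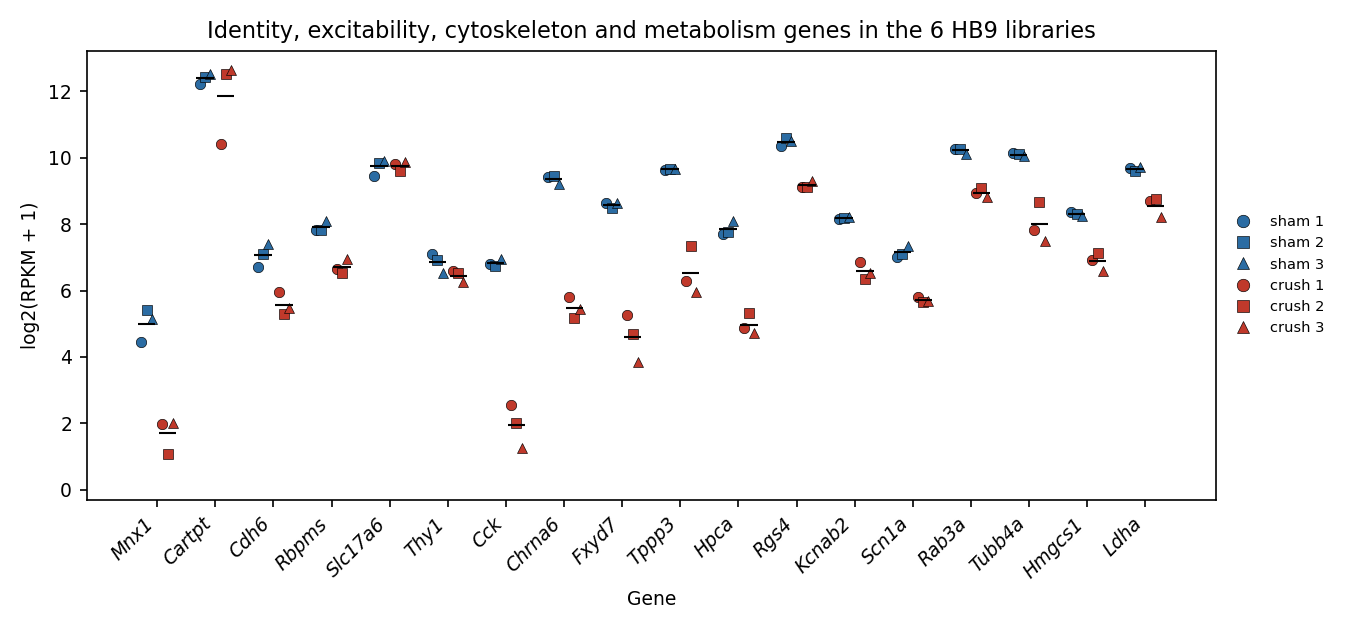
Level of 18 genes of identity, excitability, cytoskeleton and metabolism, as log2(RPKM + 1), in each of the 3 sham (blue) and 3 crush (red) libraries, with a bar at the group mean. Mnx1, Cck, Chrna6, Fxyd7 and Tppp3 show wide gaps between groups, Slc17a6 and Thy1 overlap, and crush 1 is the low Cartpt library.

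The largest falls were in genes of peptide and acetylcholine signalling, calcium binding and the sodium pump. Cck (cholecystokinin), at chr9:121489825-121495689, was at 111, 105 and 123 RPKM after sham and 4.9, 3.06 and 1.38 RPKM after crush (log2 change -4.89 ± 0.70, adjusted p = 0.000969). Scgn (secretagogin), a calcium sensor, was at 35.5, 43.2 and 10.7 RPKM after sham and 0, 0 and 0 RPKM after crush (adjusted p = 0.0082), at least 1170-fold lower when crush is set to a floor of 3 reads over the group. Fxyd7, a brain regulator of the sodium-potassium pump, was at 400.5, 359 and 394 RPKM after sham and 37.5, 25 and 13.4 RPKM after crush (log2 change -3.98 ± 0.29, adjusted p = 6.61e-06). Tppp3, a tubulin polymerisation-promoting protein, was at 792, 814 and 808 RPKM after sham and 77.8, 162 and 61 RPKM after crush (log2 change -3.12 ± 0.31, adjusted p = 5.89e-05). Sham libraries of Fxyd7 and Tppp3 lay close together, while the crush libraries were scattered far below. Others of the 15 were Rasgrp2, an exchange factor for RAP GTPases (-3.37 ± 0.55), the secreted signal Wnt2b (-3.26 ± 0.46, adjusted p = 0.0565 in the voom model), Lect1 (-3.73 ± 0.54), Kctd4 (-3.59 ± 0.53), Shroom2 (-3.54 ± 0.45), Susd2 (-3.21 ± 0.39) and Kctd19 (-3.15 ± 0.47). Gsta4 (-3.54 ± 0.91) and Gm1604b (-3.29 ± 0.85) passed in none of the fits with 1 library left out (adjusted p up to 0.145 and 0.146).

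Channels, receptors and calcium sensors of excitability fell in part of their members. Of 36 tested potassium channel genes, 7 fell and none rose (median -0.55), against 2.57% and 3.84% of all genes. Without sham 3 or crush 3, 4 fell. The auxiliary subunit Kcnab2 was at 281, 291 and 296 RPKM after sham and 116, 79.6 and 91.4 RPKM after crush (log2 change -1.60 ± 0.17, adjusted p = 0.000129), with groups wide apart. The fast-spiking channel gene Kcnc1 and the axonal Kcna2 fell by 1.52 ± 0.27 and 1.66 ± 0.30. Of 29 tested sodium, calcium and HCN channel genes, 4 fell and Hcn3 rose (1.24 ± 0.26), with a median of -0.77. That 1 rise is a share near the 3.84% of all genes. The pore-forming Scn1a was at 128, 136 and 160.5 RPKM after sham and 55, 49.8 and 50.7 RPKM after crush (log2 change -1.43 ± 0.25, adjusted p = 0.00349), and the auxiliary Cacnb3 and Scn3b fell by 1.84 ± 0.26 and 2.04 ± 0.29. None of these channels overlapped between groups. Of 39 tested neurotransmitter receptors, 5 fell and none rose (median -0.42), and 3 fell without sham 2. The fallen genes include, beside Chrna6, the nicotinic Chrnb2 (-1.29 ± 0.25), the NMDA receptor subunit Grin1 (-1.04 ± 0.21, adjusted p = 0.0506 without sham 2) and the GABA receptor subunit Gabra5 (-2.81 ± 0.51, adjusted p = 0.127 with a pseudocount of 0.1). Of 15 calcium buffers and sensors, 3 fell and none rose (median -0.85). Hpca (hippocalcin) was at 208, 218 and 269.7 RPKM after sham and 28.4, 38.8 and 25.1 RPKM after crush (log2 change -2.89 ± 0.21, adjusted p = 6.61e-06), and Vsnl1 (visinin-like 1) fell by 1.88 ± 0.28. Of 14 RGS genes, which shorten G protein signals, 3 fell (median -0.62). Rgs4 was at 1302, 1543 and 1440 RPKM after sham and 555, 559 and 631 RPKM after crush (log2 change -1.29 ± 0.16, adjusted p = 0.000391).

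Genes of synaptic vesicles and their fusion fell in some members. Of 26 tested genes of synaptic release, 5 fell and none rose, against 2.57% and 3.84% of all genes. Their median was -0.54, and 3 passed with any 1 library left out. Rab3a, a vesicle GTPase, was at 1238, 1226 and 1113 RPKM after sham and 487, 548 and 448 RPKM after crush (log2 change -1.27 ± 0.13, adjusted p = 0.000113). Sncb (beta-synuclein) fell by 1.68 ± 0.20, and the SNARE protein Snap25 by 0.73 ± 0.10, from 3146, 3395 and 3329 to 1964, 2000 and 1963 RPKM, with an adjusted p of 0.16 after quantile normalization. The crush libraries of Snap25 lay close together and below every sham library. Genes outside the lists that fell without overlap, chosen after their values were seen, include the potassium-chloride cotransporter Slc12a5 (-2.40 ± 0.19), the neuronal pentraxin Nptx1 (-2.48 ± 0.37) and the protocadherin Pcdh8 (-2.91 ± 0.30).

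Tubulin isotypes split, most of the abundant ones falling and Tubb6 rising. Of 27 tested tubulins, stathmins and microtubule-associated proteins, 2 rose and 10 fell, against 3.84% and 2.57% of all genes, with a median of -0.48. With 1 library left out 1 rose and 5 to 10 fell, with 5 falls without sham 1 or sham 2. Tubb4a was at 1122, 1099 and 1055 RPKM after sham and 227, 408 and 179.7 RPKM after crush (log2 change -2.09 ± 0.22, adjusted p = 0.000125), and Tuba4a at 794, 822 and 868 RPKM after sham and 227, 294 and 163 RPKM after crush (log2 change -1.90 ± 0.23, adjusted p = 0.000275). Crush 2 was the highest of the crush libraries for both, but still far below sham. Tubb4b and Tuba1b fell by 1.61 ± 0.19 and 1.38 ± 0.25, and alpha tubulin genes are so alike in sequence that reads may be shared between them. Tubb3, the neuronal isotype, was at 498, 533 and 477 RPKM after sham and 449.9, 492 and 258 RPKM after crush and overlapped. Tubb6 was at 8.34, 17.3 and 6.9 RPKM after sham and 41.5, 41.3 and 37.7 RPKM after crush (log2 change 1.90 ± 0.36, adjusted p = 0.00663), with all crush libraries above all sham libraries. Of 7 tested neurofilaments and related filaments, Nefm, Nefh and Ina passed downward and Vim upward, and each of these calls was lost with single libraries left out (adjusted p up to 0.121, 0.115, 0.113 and 0.081). Nefl was at 3447, 3793 and 3338 RPKM after sham and 2125, 2354 and 2050 RPKM after crush (adjusted p = 0.0548, and 0.00568 in the voom model). Of 23 tested transport motor genes, 4 rose and none fell, with a median of -0.01. Without sham 1, sham 3, crush 1 or crush 2, 2 rose, and under quantile normalization 2 fell. Kif3a, a kinesin subunit, was at 168, 192 and 163 RPKM after sham and 377, 398 and 469.6 RPKM after crush (log2 change 1.24 ± 0.16, adjusted p = 0.000435), with no overlap.

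Genes of sterol synthesis and glycolysis fell in part, and none of the respiratory chain was called. Of 21 genes of cholesterol synthesis and uptake, all tested, 8 fell and none rose, against 2.57% and 3.84% of all genes. Their median was -1.05, and 3 to 7 passed with 1 library left out, the lowest count being without sham 3. Hmgcs1, an early enzyme of the pathway, was at 325, 318 and 303 RPKM after sham and 120.0, 139.5 and 95.3 RPKM after crush (log2 change -1.42 ± 0.17, adjusted p = 0.000351). Idi1 was at 62.3, 68.2 and 47.7 RPKM after sham and 8.88, 7.89 and 25.7 RPKM after crush (log2 change -2.17 ± 0.35, adjusted p = 0.00216). Both were separate between groups. Fdps fell by 1.38 ± 0.24 and Srebf2, the transcription factor of the pathway, by 1.11 ± 0.26 (adjusted p = 0.0711, 0.0949, 0.105 and 0.0874 without sham 2, sham 3, crush 1 and crush 3). Sqle, which encodes squalene epoxidase, was at 72.2, 68.2 and 51 RPKM after sham and 84.9, 66.7 and 80.3 RPKM after crush, with overlap. Of 20 glycolysis genes, 8 fell and none rose, with a median of -0.46, and 2 or 3 passed with 1 library left out. Ldha, lactate dehydrogenase, was at 819, 777 and 847 RPKM after sham and 409.5, 428 and 298 RPKM after crush (log2 change -1.12 ± 0.15, adjusted p = 0.000632), and Pgam1 fell by 0.83 ± 0.12. Under quantile normalization 3 glycolysis genes fell and 1 rose. Of 36 nuclear genes of the respiratory chain and ATP synthase, none passed in either direction in the limma fit (median -0.14), and 3 fell under median-ratio scaling. Of 31 proteasome subunits, 4 rose and none fell, led by Psmd8 at 181, 172 and 201 RPKM after sham and 517, 499 and 451 RPKM after crush (log2 change 1.40 ± 0.13, adjusted p = 5.27e-05). With any 1 library left out 1 or 2 of them passed, Psmd8 each time. Among 80 tested ribosomal protein genes 3 rose, a share near the 3.84% of all genes, with a median of 0.37, and none passed without sham 3 in the limma fit.

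Some fallen pseudogenes tracked the level of Gapdh closely. They were picked by that profile alone, and whether they derive from Gapdh or share its reads was not tested. Gapdh was at 1270, 1052 and 967 RPKM after sham and 744, 773 and 601 RPKM after crush (log2 change -0.63 ± 0.18, adjusted p = 0.0513), just short of the threshold, and passed in the voom model (adjusted p = 0.0331). Among tested pseudogenes, 123 kept a constant ratio to Gapdh over the 6 libraries (the SD of the log2 ratio was under 0.1), with changes of -0.73 to -0.47. Of these, 58 passed downward, which is 58 of the 97 fallen pseudogenes, and none upward. They form a band of points near -0.63 in the plot of change against level. The 352 fallen protein-coding genes do not include them.

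Markers of other retinal cells were detected in both groups, some at high summed levels. The summed level of 15 rod markers was 320 to 1050 RPKM after sham and 641 to 1050 RPKM after crush, and none of the 15 passed, with a median of 0.60. The cone sum was 120 RPKM in crush 2 and 11.1 and 5.99 RPKM in crush 1 and 3, and the amacrine sum 261 RPKM against 77.1 and 60.1 RPKM. Bipolar sums were 60.1 to 80.2 RPKM after sham and 22.3 to 77.9 RPKM after crush. The amacrine gene Slc6a9 passed upward (3.60 ± 0.76), lost without sham 3 or crush 1 (adjusted p = 0.0594 and 0.0538). Of 10 markers of Muller glia and astrocytes, Slc1a3, Aqp4, Gfap and Sox9 were below 1 RPKM in all 6 libraries. The sum of all 10 was 456 to 507 RPKM after sham and 845 to 2210 RPKM after crush. That rise was the rise of Clu (clusterin), a secreted chaperone that neurons also make, and the other members together did not rise. Clu was at 195, 248 and 227 RPKM after sham and 1616, 1987 and 705 RPKM after crush (log2 change 2.56 ± 0.30, adjusted p = 0.000227). Rlbp1, a defining Muller gene, was at 2.63, 2.3 and 3.73 RPKM after sham and 14.7, 18.2 and 31.5 RPKM after crush (adjusted p = 0.134, and 0.0105 with the HB9 libraries alone), and Dkk3 fell (-1.53 ± 0.36), a call lost with most single libraries left out (adjusted p up to 0.102). Sums of vascular markers were at most 0.139 RPKM after sham and 1.56 to 2.99 RPKM after crush, and those of pigment epithelium markers 2.76 to 4.1 RPKM and 16 to 32.5 RPKM. Most of the pigment epithelium sum in every library was Rlbp1, which is in both lists, so it is no separate rise. Rpe65, Ttr, Rgr and Tyr were below 1 RPKM in all 6 libraries. Erythrocyte sums were 1.01 to 18.5 RPKM after sham and 0 to 11.8 RPKM after crush. The part of such RNA in the results above was not tested, beyond a fit with the rod level as a covariate, which called 1108 genes, 1005 of them among the 1172.

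**Figure D5:**
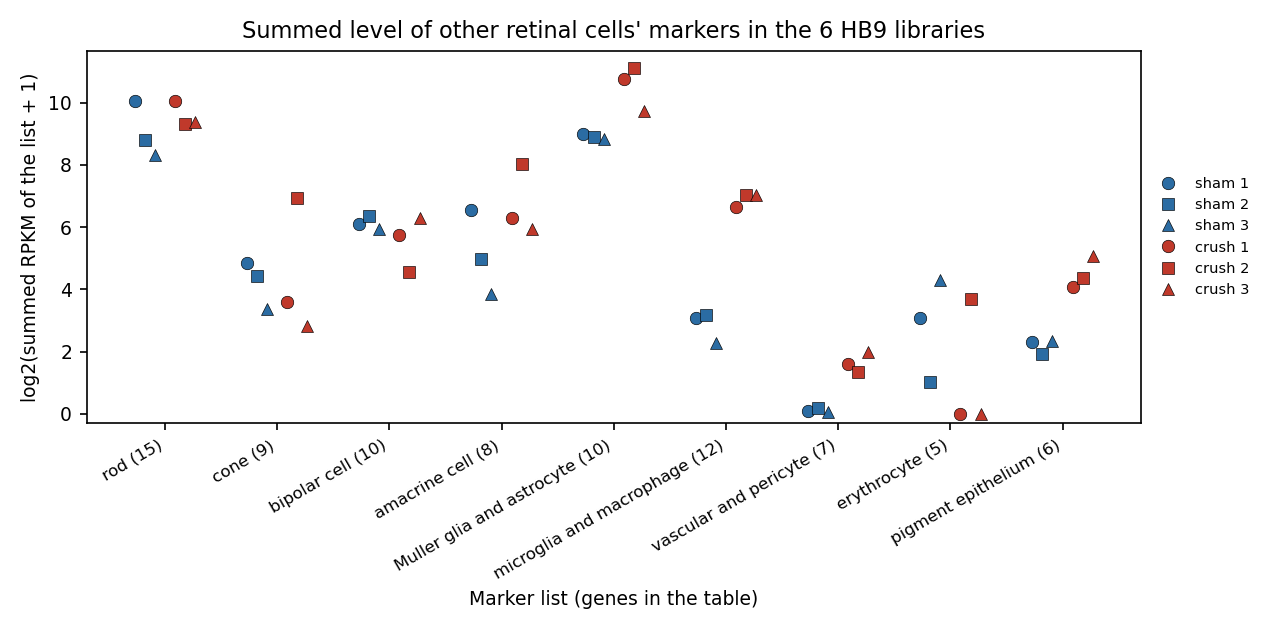
Summed RPKM of the markers of 9 other cell types, as log2(sum + 1), in each sham (blue) and crush (red) library, with the number of marker genes in brackets. Rod sums overlap between groups, while the microglia and macrophage sum (3.8 to 8 RPKM after sham, 98.8 to 131 RPKM after crush) and the Muller glia sum separate them, through Cd68 and Clu.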

How the data were processed

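RNA-seq of pooled single cells was deposited by the authors as 1 table of RPKM for 38887 genes in 12 libraries. Per the submitters' processing notes the tools included Bowtie, TopHat2 2.0.11 and edgeR 3.14.0, with mm10 as the build, and no role is stated for them. The counting method, annotation and use of strand are not given in the sources used here. A gene's length was taken as the smallest at which all its values above 0 gave whole reads (tolerance 0.01). The fit to whole reads is therefore by construction and is no check. Such reads summed to 226.7 to 244.2% of the totals used for scaling, an excess that the sources used here do not explain. Recovered reads served only 1 alternative (voom) and the floors of 3 reads over a group, which cover counting error only.

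Genes with at least 1 RPKM in at least 3 of the 12 libraries (18269) were fitted with limma 3.58.1 in R 4.3.3 on log2(RPKM + 1), a scale that understates changes of low genes. The model had 4 group means and a mean-variance trend with 8 residual degrees of freedom. Crush was compared with sham within HB9:GFP, two-sided, with Benjamini-Hochberg adjustment over all genes tested and a threshold of 0.05. The fit was also run on simulated data with independent noise and with changes planted only in genes above a set level. That run is therefore no check for genes near 0. Named were the 15 largest changes in each direction among called genes without overlap, a set of genes chosen by name, and up to 6 called members per direction of each of 50 lists. List members given by value that did not pass, and a few further genes, were chosen after their values were seen. Members and lists were chosen with earlier results of these data known. A few genes that this rule names are not reported here. Of 915 listed symbols, 914 were in the table. There were 17 alternatives: 2 pseudocounts (0.1 and 5), no filter, a stricter filter (5 RPKM), the 6 HB9 libraries alone, quantile normalization, median-ratio scaling, array weights, a rod-level covariate, a replicate block, voom, and each of the 6 libraries left out. Promoter sequences came from RefSeq on GRCm38.p6.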

Additional observations from a re-analysis of the deposited data

How the results depend on the processing

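Against 1172 called genes (702 higher, 470 lower), the 6 HB9 libraries alone gave 1939 (1142 and 797) and array weights 3025 (1771 and 1254). Leaving out 1 library gave 645 to 777 genes, 426 to 510 higher and 209 to 312 lower, and between 617 and 731 of the 1172 were among them. The cause was not tested, beyond the smaller number of libraries. The other alternatives gave 936 to 1299 genes. Same-numbered sham and crush libraries did not deviate together (r = 0.017, -0.022 and 0.081), and the fit with a replicate block called 1072 genes (626 higher, 446 lower), 1028 of them shared with the 1172.

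Of 217 named genes, 128 had the same call and direction in every alternative, and 201 were called. Of those 201, the call was lost in 44 to 57 with 1 library left out, 34 without the filter, 21 under voom, 20 with a pseudocount of 0.1, 16 after quantile normalization and 16 with the rod covariate. The sign changed for 3 genes, all uncalled. Cartpt ranged from -0.92 to 0.20 with 1 library left out, above 0 without crush 1. Slc17a6 was at -0.09 under median-ratio scaling and -0.00 with array weights, and ranged from -0.12 to 0.11 with 1 library left out. Thbs1 ranged from -0.44 to 0.01, above 0 without sham 2.

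Counts of list members moved by more than 1.5 times in several cases, besides array weights and the HB9 libraries alone, which called more genes overall. After quantile normalization, falls in glycolysis went from 8 to 3 and in ganglion cell genes from 5 to 3. Without the filter, falls of tubulin-related genes went from 10 to 6, of glycolysis genes to 5 and of filaments from 3 to 1. Under voom, rises of neuropeptides went from 8 to 5, and falls of calcium sensors from 3 to 8, of ooDSGC markers from 2 to 5 and of release genes from 5 to 9. Release genes that fell numbered 3 with a pseudocount of 0.1, without the filter or with the rod covariate, and 8 under median-ratio scaling. With 3 libraries of 30 cells a group, changes in genes with few reads were not detectable below the spread between libraries.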

Other observations

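The response also reached transcripts outside the lists. Of the 702 risen genes, 30 were listed at 0 in all sham libraries and 130 had a sham mean under 1 RPKM, and 9 of the 470 fallen genes were listed at 0 in all crush libraries. Among called transcripts there were 14 lincRNA genes that rose and 6 that fell, and 16 microRNA genes that rose and 2 that fell. Genes chosen after their values were seen include Eif4ebp1, a repressor of cap-dependent translation, at 0.0908, 0 and 0 RPKM after sham and 59.4, 45.3 and 39.4 RPKM after crush (limma, log2 change 5.55 ± 0.89, adjusted p = 0.00216). The Wnt carrier Wls was at 0.458, 0.0123 and 0 RPKM after sham and 32.7, 13.2 and 25.9 RPKM after crush (limma, log2 change 4.36 ± 0.59, adjusted p = 0.000658). Clic4, an intracellular chloride channel protein, was at 4.33, 1.5 and 1.45 RPKM after sham and 145, 138 and 141 RPKM after crush (limma, log2 change 5.48 ± 0.53, adjusted p = 5.27e-05). The integrin subunit Itga5, a receptor chain for fibronectin, was at 0.0916, 0.908 and 0.023 RPKM after sham and 34.5, 23.4 and 45.8 RPKM after crush (limma, log2 change 4.74 ± 0.68, adjusted p = 0.00106). The groups did not overlap for any of these 4 genes, and each kept its call and direction in all 17 alternatives.

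Crush 3 was most often at either extreme of the crush libraries. Among the risen genes it was the lowest for 288, against 180 for crush 1 and 234 for crush 2, and the highest for 258, against 250 and 194.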
